A study of Mus musculus with 2 samples.

Results

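The Notch receptors and ligands were measured as RNA in whole heart: the receptors Notch1, Notch2, Notch3 and Notch4, the ligands Jag1, Jag2, Dll1 and Dll4, and the nuclear proteins Rbpj and Maml1 through which the receptors act. These 10 genes were taken by name from the 55536 mouse genes of the deposited tables. The hearts came from 2 female mice of strain B6CASTF1/J, a hybrid of an inbred laboratory strain with a strain of CAST origin, at 36 days of age, with no treatment named in the labels. They form 1 group, with animal 3 as replicate 1 and animal 4 as replicate 2, so the study holds no contrast between conditions and what can be described is the level of each gene, its transcripts and the spread between the animals. The labels call the libraries biological replicates and also give both the same donor identifier. Each library was made from 300 ng of total RNA, with ERCC spike-in RNAs added.

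Notch signalling works between touching cells. A ligand of the Jagged or Delta-like family on a neighbour binds the receptor, proteases cut the receptor, and its intracellular domain moves to the nucleus, where it joins the DNA-binding protein Rbpj and a Mastermind-like coactivator and switches on genes of the Hes and Hey families. In the heart and its vessels the pathway is known for arterial identity, valve and trabecular development and the coat of smooth muscle and pericytes around vessels, with Notch1, Notch4 and Dll4 typical of endothelium and Notch3 of mural cells.

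All 10 genes were detected, meaning at least 1 TPM (a transcript level corrected for length and scaled to the same total in each library) in both libraries. Among 22028 protein-coding genes, 50.2% met that rule. Mean levels ran from 2.52 TPM for Dll1 to 13.5 TPM for Notch4, between the 56.9th and the 81.7th percentile of protein-coding genes. With TPM rescaled over nuclear protein-coding genes without haemoglobins, the same ends stood at 6.83 and 36.4. The members together held 82.4 TPM and 14561 expected counts in replicate 1, and 76.4 TPM and 12503 expected counts in replicate 2. The libraries held 39053339 and 38332179 expected counts, of which mitochondrial genes took 29.0% and 31.6%, and haemoglobin genes took 1.54% and 0.493%. Heart identity was checked on 6 cardiomyocyte markers, all detected, from Ryr2, the calcium release channel, at 371 ± 21.7 TPM to Myh6, the alpha myosin heavy chain, at 8639 ± 451 TPM (SD, n = 2).

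**Figure D1:**
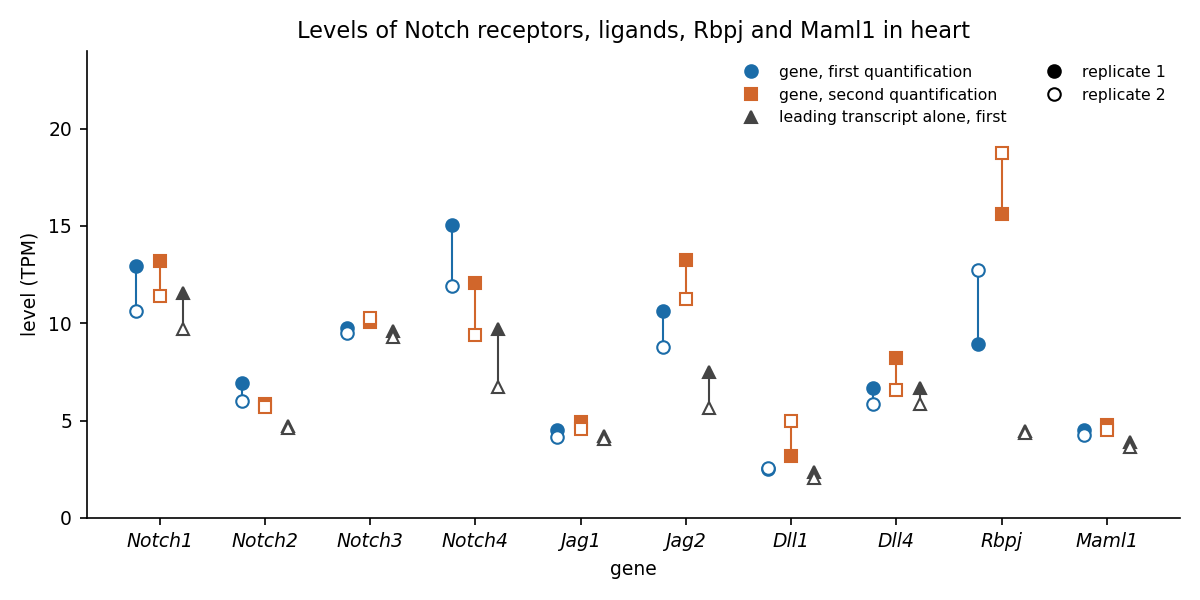
Level in TPM (vertical axis) of each of the 10 genes, with replicate 1 as filled and replicate 2 as open symbols, for the gene in the first quantification (circles), the gene in the second quantification (squares) and the leading transcript alone (triangles). Notch4 stands highest among the receptors only in the circles, and Rbpj lies at 8.94 and 12.7 TPM in the first quantification but at 15.6 and 18.8 TPM in the second.

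Among the receptors, Notch4 and Notch1 had the highest levels in the first of the deposited quantifications. Notch4, the receptor most restricted to endothelium (chr17:34564268-34588503, plus strand, mm10), was at 15.0 TPM in replicate 1 and 11.9 TPM in replicate 2, a mean of 13.5 ± 2.22 TPM (SD, n = 2). Notch1, the receptor of endothelium and endocardium among many other cells (chr2:26457903-26516663, minus strand), was at 13.0 and 10.6 TPM, a mean of 11.8 ± 1.65 TPM. Both were lower in replicate 2, and their ranges overlapped, although Notch4 was above Notch1 within each library.

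Notch3, the receptor of pericytes and vascular smooth muscle (chr17:32120820-32166852, minus strand), was at 9.74 and 9.50 TPM, the receptor with the smallest spread. Notch2 (chr3:98013527-98150361, plus strand), a broadly expressed receptor, was the lowest at 6.92 and 6.02 TPM. Notch3 lay above Notch2 with no overlap between the libraries, and so did Notch4 and Notch1. As shares of the summed receptor TPM, Notch4 held 32.5 ± 1.70%, Notch1 28.5 ± 0.767%, Notch3 23.4 ± 2.24% and Notch2 15.7 ± 0.232% (SD, n = 2).

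The place of Notch4 above Notch1 depended on short partial transcripts that few reads supported. The annotation holds 12 Notch4 transcripts, of which 10 are under 1000 bases long and 1, Notch4-201, is the leading form with 6591 bases, 5892 of them coding. The short forms took 69.1 of 2056 expected counts in replicate 1 (3.36%) and 64.0 of 1393 in replicate 2 (4.59%). Because TPM divides by length, the same reads made up 5.31 and 5.17 TPM, or 35.3% and 43.4% of the gene's TPM.

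With Notch4-201 alone, the level was 9.70 TPM in replicate 1 and 6.73 TPM in replicate 2, against 11.6 and 9.71 TPM for Notch1-201 and 9.59 and 9.28 TPM for Notch3-201. On that measure, which was added after the values were seen, Notch1 led the receptors with a share of 32.3 ± 0.370%, followed by Notch3 with 28.8 ± 2.56%, Notch4 with 24.7 ± 3.60% and Notch2 with 14.2 ± 1.40%. The second quantification gave the same receptor in first place from all transcripts, with 31.5 ± 0.757% for Notch1 and 27.4 ± 2.65% for Notch4. Its Notch4 levels were 12.1 and 9.38 TPM and its Notch1 levels 13.2 and 11.4 TPM, so Notch1 was above Notch4 within each library.

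**Figure D2:**
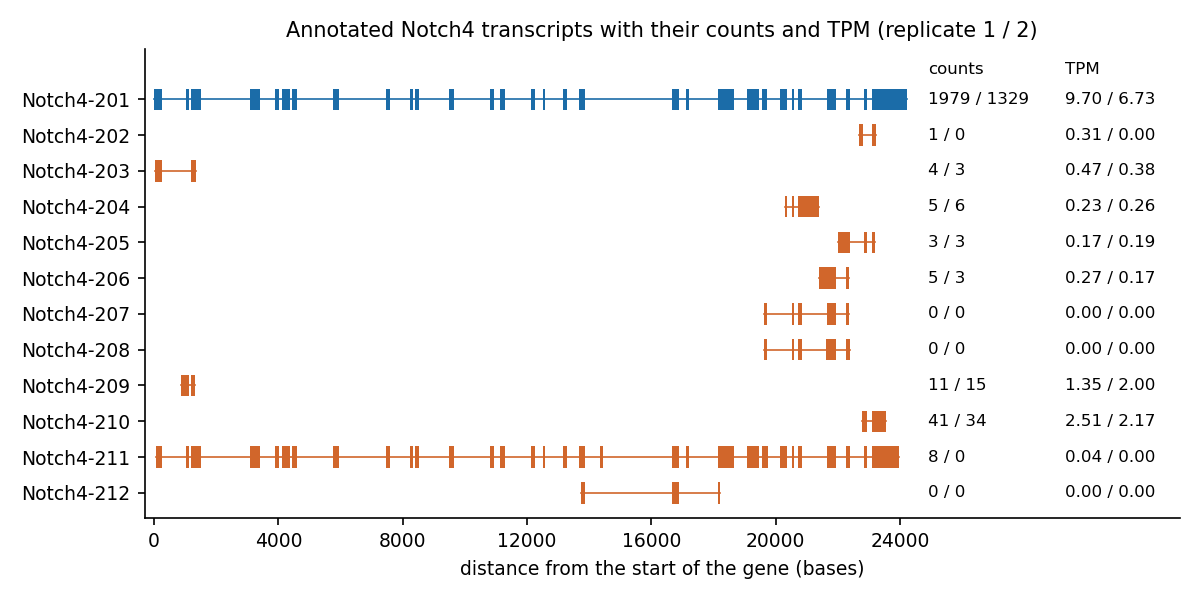
The 12 annotated Notch4 transcripts drawn to scale by distance in bases from the start of the gene (horizontal axis), with exons as boxes, the leading transcript in blue, and expected counts and TPM of replicates 1 and 2 at the right. Notch4-210 holds 41 and 34 counts but 2.51 and 2.17 TPM, while Notch4-201 holds 1979 and 1329 counts and 9.70 and 6.73 TPM.

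The short forms with the highest TPM were Notch4-210, annotated as a processed transcript of 619 bases, and Notch4-209, annotated as a retained intron of 352 bases. Notch4-210 was at 2.51 and 2.17 TPM from 41.0 and 34.3 expected counts, and the second quantification listed it at 0 in replicate 1 and near 0 in replicate 2. Notch4-209 was at 1.35 and 2.00 TPM from 10.7 and 15.4 expected counts, and the second quantification listed it at 0 in both. Their first exons are shown because they set these forms apart from Notch4-201, with bases that lie outside every exon of Notch4-201 in capitals and bases of its coding sequence in lower case. The first exon of Notch4-210 (chr17:34587041-34587214, plus strand, mm10) has 76 bases outside and 98 inside, and that of Notch4-209 (chr17:34565136-34565382, plus strand, mm10) has 165 outside and 82 inside.
Notch4-210: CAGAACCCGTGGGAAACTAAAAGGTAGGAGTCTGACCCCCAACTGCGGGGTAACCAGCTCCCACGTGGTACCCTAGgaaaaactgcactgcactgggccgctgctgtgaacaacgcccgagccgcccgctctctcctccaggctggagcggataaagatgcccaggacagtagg
Notch4-209: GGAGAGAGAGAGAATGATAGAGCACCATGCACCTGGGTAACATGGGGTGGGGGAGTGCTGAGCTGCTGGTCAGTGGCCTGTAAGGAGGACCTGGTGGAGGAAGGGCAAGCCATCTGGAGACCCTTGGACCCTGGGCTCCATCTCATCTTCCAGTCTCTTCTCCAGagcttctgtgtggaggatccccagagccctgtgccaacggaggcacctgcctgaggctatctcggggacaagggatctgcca
In both exons the capitals form 1 block at the 5′ end, where the exon runs into an intron of Notch4-201, and the lower-case bases are shared with it. Over its whole length Notch4-210 shares 543 of 619 bases with Notch4-201, and Notch4-209 shares 187 of 352.

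Notch2 had a similar division on a smaller scale. Notch2-202, an annotated retained intron of 1896 bases, held 2.22 and 1.41 TPM from 125 and 76.9 expected counts, which was 27.7 ± 6.12% of the gene's TPM (SD, n = 2) against 9.54% in the second quantification. The full-length Notch2-201 was at 4.71 and 4.62 TPM, almost level between the libraries, while the gene total was at 6.92 and 6.02 TPM. Notch1 and Notch3 rested on their leading transcripts, which held 90.4 ± 1.48% and 98.1 ± 0.549% of the TPM.

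Of the ligands, Jag2 was the highest and Dll1 the lowest by mean TPM. Jag2, a Jagged ligand (chr12:112907819-112929776, minus strand), was at 10.6 TPM in replicate 1 and 8.79 TPM in replicate 2. Dll4, the Delta-like ligand typical of arterial and sprouting endothelium (chr2:119325784-119335962, plus strand), was at 6.68 and 5.87 TPM. Jag1, the Jagged ligand altered in Alagille syndrome (chr2:137081456-137116644, minus strand), was at 4.51 and 4.15 TPM. Dll1, a Delta-like ligand best known from somites and the nervous system (chr17:15367354-15376872, minus strand), was at 2.49 and 2.54 TPM. No pair of these ligands overlapped between the libraries in this first quantification. In the second, Dll1 (3.15 and 4.98 TPM) overlapped Jag1 (4.94 and 4.56 TPM) and was above it in replicate 2.

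Jag2 was 2.24 ± 0.166 times Jag1, and Dll4 was 2.50 ± 0.263 times Dll1 in TPM (SD, n = 2). The second quantification gave 2.57 ± 0.151 and 1.96 ± 0.907 for these ratios. In the first, the shares of the ligands were as follows. Jag2 held 42.4 ± 1.77% of the summed ligand TPM, Dll4 27.5 ± 0.00487%, Jag1 19.0 ± 0.616% and Dll1 11.1 ± 1.16%. The lead of Jag2 was narrower without its partial transcripts: Jag2-201 was at 7.48 and 5.63 TPM and Dll4-201 at 6.68 and 5.87 TPM, so that Dll4 was above Jag2 in replicate 2. With leading transcripts alone the shares were 34.1 ± 2.98% for Jag2 and 32.8 ± 0.718% for Dll4, and these could not be separated from the spread between the libraries. Jag2-205, a processed transcript of 750 bases, held 1.21 and 1.97 TPM from 24.7 and 39.1 expected counts.

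Dll1 was the member for which the second quantification was least even. It gave 3.15 TPM in replicate 1 and 4.98 TPM in replicate 2, although the estimated counts were 255 and 225. Dll1-201 held 74.3% of the gene's TPM in replicate 1 and 38.2% in replicate 2 there, against 93.6% and 80.8% in the first quantification. Dll4 in turn had all its first-quantification reads on Dll4-201, 766 and 652 expected counts.

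Summed receptor TPM was 44.6 in replicate 1 and 38.0 in replicate 2, and summed ligand TPM was 24.3 and 21.4. The ratio of receptors to ligands was 1.81 ± 0.0400 in the first quantification and 1.37 ± 0.0367 in the second (SD, n = 2). Receptors exceeded ligands in both libraries and both quantifications.

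Rbpj, the DNA-binding protein that receives the receptor fragment (chr5:53466152-53657362, plus strand), was at 8.94 TPM in replicate 1 and 12.7 TPM in replicate 2, and was the member with the largest spread relative to its mean (10.8 ± 2.68 TPM, SD, n = 2). Its expected counts, 1202 and 1301, differed much less than its TPM. The effective length the files give for the gene, averaged over its transcripts, was 4279 bases in replicate 1 and 3359 in replicate 2. Transcripts under 1000 bases took 20.0% of Rbpj TPM in replicate 1 and 39.6% in replicate 2, from 2.66% and 6.30% of its counts. Over transcripts of 1000 bases or more, Rbpj was at 7.14 and 7.68 TPM.

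Rbpj-203, the leading form (5440 bases, 1461 coding), was level at 4.44 and 4.38 TPM. Rbpj-209 and Rbpj-211, which are a processed transcript and a retained intron of 548 and 678 bases, were listed at 0 in replicate 1 and at 1.52 and 1.63 TPM in replicate 2, from 20.8 and 28.8 expected counts. Rbpj was the only member whose leading transcript differed between the quantifications: in the second, Rbpj-210, a coding form of 687 bases, held 41.0 ± 3.28% of the gene's TPM and Rbpj-203 40.4 ± 4.42%.

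Rbpj also shares sequence with a pseudogene. Of the 5391 stretches of 50 bases in Rbpj-203, 1239 (23.0%) also occur in Rbpj-ps3, a processed pseudogene (chr6:46529354-46530794, mm10), which was listed with 237 and 131 expected counts. Rbpj-ps3 was lower and Rbpj higher in replicate 2, and their sum was 1439 and 1432. The log2 ratio of replicate 2 over replicate 1 was 0.22 (95% interval 0.10 to 0.33) for Rbpj alone and 0.10 (-0.01 to 0.20) for the sum, an added comparison. In the second quantification the sum gave 0.11 (0.015 to 0.21), an interval that does not include 0. Values of Rbpj are therefore uncertain to the extent that reads could be divided between these loci in more than 1 way.

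Maml1, a Mastermind-like coactivator (chr11:50255634-50292311, minus strand), was at 4.51 and 4.25 TPM. It was 1.89 ± 0.0359 times Maml2 and 2.98 ± 0.852 times Maml3 in TPM (SD, n = 2). Maml1-201 and Maml1-202, both coding, held 86.1 ± 0.262% and 13.9 ± 0.262% of its TPM.

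In descending order of mean TPM in the first quantification the members ran Notch4, Notch1, Rbpj, Jag2, Notch3, Notch2, Dll4, Maml1, Jag1 and Dll1. Neighbours in that order overlapped between the libraries except at 3 steps, which were Notch3 over Notch2, Dll4 over Maml1, and Jag1 over Dll1. In the second quantification Rbpj stood first at 17.2 ± 2.23 TPM with no overlap with Notch1 below it.

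**Figure D3:**
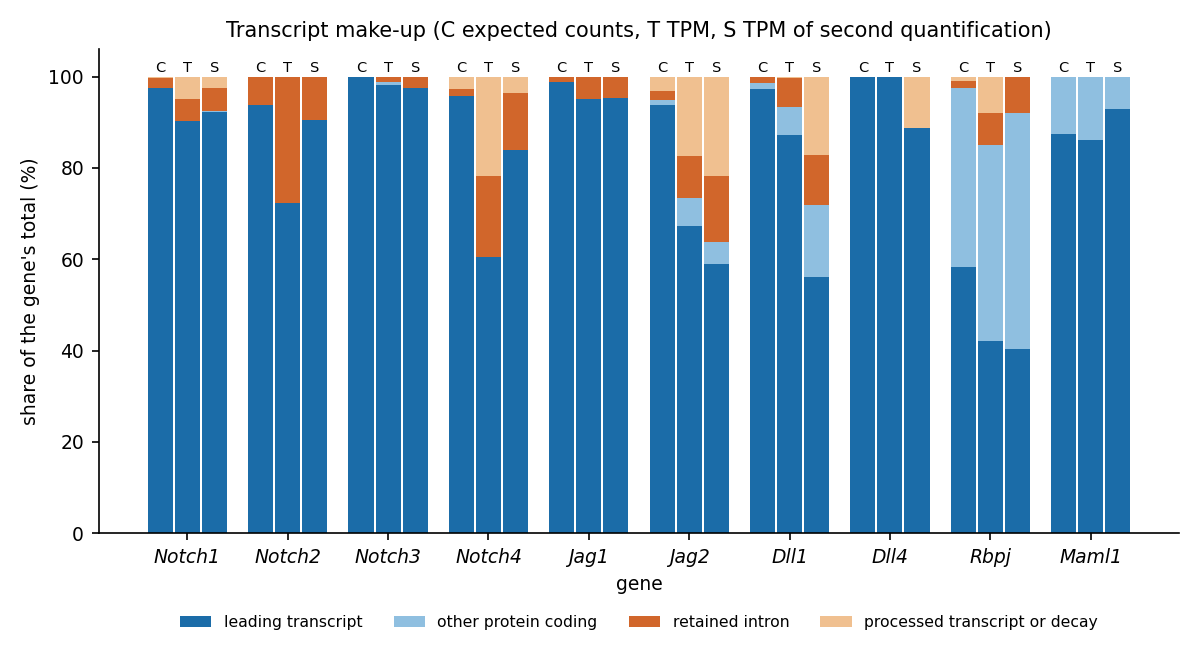
Share of each gene's total (vertical axis, percent, mean of the 2 libraries) held by its leading transcript, other coding transcripts, retained introns, and processed or decay transcripts, for expected counts (C), TPM (T) and TPM of the second quantification (S). Notch4 goes from 95.8% on its leading transcript by counts to 60.5% by TPM, and Jag2 from 93.9% to 67.3%.

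Across the 10 genes the annotation holds 62 transcripts. In 9 genes, all but Rbpj, the leading transcript held over 50% of the first-quantification TPM in both libraries. The number was 8 in the second quantification, where Dll1-201 held 38.2% in replicate 2. It was also 8 with posterior mean TPM, where Notch4-201 held 46.9% in replicate 2. All but Rbpj, 9 genes, had the same leading transcript in both quantifications. By expected counts the leading share was 87.4% or more in those 9 genes. The gap between the share of counts and the share of TPM was widest for Notch4, Jag2 and Notch2, as the plot of transcript make-up shows. Whether the partial transcripts exist as separate RNA or take reads from unspliced or full-length RNA was not tested.

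Several members overlap genes on the other strand, and the sources used here do not say how strand entered the counting. The overlapping genes had few counts: 0610009E02Rik, beside the end of Notch1, had 19 and 14, Gm17276 at Notch3 had 18 and 16, Gm14207 at Dll4 had 9 and 10, and A930024N18Rik at Dll1 had 8 and 11. These compare with 227 counts or more for every member in each library.

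The rest of the pathway was described with 72 further genes in 8 lists, of which 61 were detected. Of the other ligands 2 of 7 were detected, led by Mfap5, a microfibril protein reported to bind Jagged ligands, at 17.1 and 15.6 TPM. Dll3, a ligand that acts within the cell that makes it, had 0 expected counts in both libraries, which allows up to 3 counts in each. For ligand uptake, which pulls on the bound receptor, 8 of 9 genes were detected, led by the adaptor Epn1 at 67.8 and 63.3 TPM, and Neurl1a was not, at 0.30 and 0.33 TPM.

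All 6 glycosylation genes were detected within a narrow range, from Lfng, a fringe enzyme that alters ligand preference, at 3.95 and 2.61 TPM to Pofut1, the O-fucosyltransferase, at 5.78 and 4.95 TPM. All 9 protease genes were detected, from the gamma-secretase subunit Aph1b at 1.82 and 1.77 TPM to Furin, which cleaves the receptor on its way to the surface, at 46.7 and 40.2 TPM. Among turnover genes 10 of 11 were detected, led by the ubiquitin ligase Nedd4 at 140 and 138 TPM, and Dtx1 was not, at 0.81 and 0.64 TPM.

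All 7 coactivators beside Maml1 were detected, from Maml3 at 1.26 and 1.79 TPM to the acetyltransferase Kat2b at 29.3 and 33.7 TPM. Of the 11 genes in the list of corepressors 10 were detected, led by Ncor1 at 47.8 and 42.8 TPM. Rbpjl, placed in that list as the relative of Rbpj known from pancreas and not as a corepressor, had 0 expected counts in both libraries. The median over the 72 genes was 5.67 TPM, against 8.05 TPM over the 10 members.

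**Figure D4:**
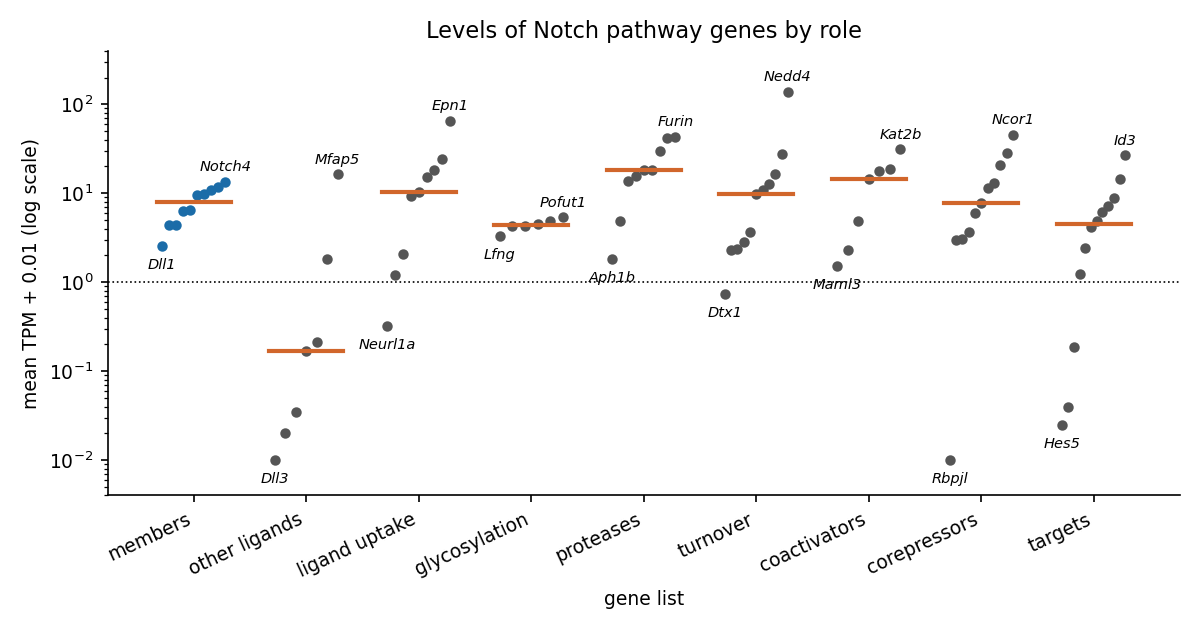
Mean TPM plus 0.01 of the 2 libraries (vertical log axis) for the members and the 8 further gene lists, 1 point per gene, with the median as an orange bar, the highest and lowest gene named, and 1 TPM as a dotted line. The members lie between Dll1 and Notch4, while Nedd4, Epn1, Ncor1 and Furin lie above every member and Dll3 and Rbpjl sit at the bottom, listed at 0.

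The target list was drawn up by name and held 12 genes, 9 of them detected. Whether Notch signalling drove any of them in these hearts was not tested. Id3, an inhibitor of helix-loop-helix factors, was the highest at 32.2 and 20.9 TPM, and Ccnd1, cyclin D1, was at 15.9 and 12.7 TPM. Hes1, the most widely used Notch target, was at 10.3 and 7.44 TPM. Heyl, a target known from smooth muscle, was at 6.79 and 7.45 TPM, and Hes6 at 5.90 and 6.47 TPM.

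Hey1, a target known from arterial endothelium and endocardium, was at 6.43 TPM in replicate 1 and 3.31 TPM in replicate 2. Nrarp, a feedback inhibitor of the pathway, was at 4.01 and 4.34 TPM, Hey2 at 2.59 and 2.23 TPM, and Myc at 1.07 and 1.36 TPM. Hes5, the target typical of neural progenitors, had 1 and 0 expected counts, Hes7, the oscillating target of somites, had 1 and 2, and Gm266 had 5 and 7. Within the Hes and Hey families, Hes1, Hes6, Hey1, Hey2 and Heyl were thus detected and Hes5 and Hes7 were not.

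Promoter windows of 250 bases before to 50 bases after the gene start (RefSeq, GRCm38.p6) were found for 7 of the 12 targets, in 8 windows. None was found for Hes1, Hey1, Heyl, Myc and Ccnd1, so these were not searched. They were searched on both strands for GTGGGAA, a form of the Rbpj binding motif, which holds the shorter TGGGAA within it. GTGGGAA occurred in 3 of the 7 genes, Hes5, Hes7 and Hey2, which was 3 of the 8 windows, and in 6.38% of all 32851 windows. TGGGAA occurred in 4 of the 7 genes, with Gm266 added, which was 4 of the 8 windows, and in 25.6% of all windows. Among the 10 members, GTGGGAA occurred in none and TGGGAA in Rbpj alone. The windows of Hey2 (chr10:30842734-30843033, minus strand) and Hes5 (chr4:154960673-154960972, plus strand) are shown because each holds 2 matches, in capitals, while the RNA of Hey2 was detected and that of Hes5 was not.
Hey2: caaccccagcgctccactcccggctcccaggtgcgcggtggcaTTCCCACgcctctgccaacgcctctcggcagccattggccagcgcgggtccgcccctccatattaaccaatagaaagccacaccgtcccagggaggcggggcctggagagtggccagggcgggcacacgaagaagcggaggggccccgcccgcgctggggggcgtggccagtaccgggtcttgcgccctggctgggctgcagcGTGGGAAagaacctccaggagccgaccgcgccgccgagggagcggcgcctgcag
Hes5: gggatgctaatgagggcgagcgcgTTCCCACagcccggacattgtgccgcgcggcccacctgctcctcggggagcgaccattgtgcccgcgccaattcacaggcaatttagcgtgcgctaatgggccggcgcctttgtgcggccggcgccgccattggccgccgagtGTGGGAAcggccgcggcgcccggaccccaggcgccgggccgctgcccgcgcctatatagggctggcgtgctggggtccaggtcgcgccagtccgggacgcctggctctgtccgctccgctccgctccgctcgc
The matches begin 207 and 4 bases before the start in Hey2 and 226 and 83 bases before it in Hes5, in each case with the first read on the opposite strand (TTCCCAC) and the second on the gene's own strand.

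The difference between the animals was measured on expected counts, as the log2 ratio of replicate 2 over replicate 1 after TMM scaling, with a two-sided exact binomial test that covers counting error only and so compares these libraries. None of the 10 members was called, that is, past an adjusted p of 0.05 with at least a 2-fold difference, where 1.53% of 13745 tested genes were. Without the 2-fold minimum 3 members were lower in replicate 2, where 11.7% of all tested genes were, and 1 was higher, where 9.84% were. With edgeR's exact test and a common dispersion over the libraries, 0 members passed the threshold of 0.05 against 1.13% of tested genes. That dispersion was estimated from these same 2 libraries taken as 1 group, so their difference was already counted as noise. The edgeR test is therefore no independent measure of variation between animals. Unadjusted, 0 members had a p under 0.05 in that test, where 583 of the 13745 tested genes did. The median log2 ratio of the members was -0.06, against 0.00047 over all genes tested.

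Notch4 had the largest difference, with 2056 expected counts in replicate 1 and 1393 in replicate 2. Its log2 ratio was -0.46 (95% interval -0.56 to -0.36, adjusted p = 1.27e-18 by the exact binomial test), and edgeR gave an unadjusted p of 0.0526. Jag2 had 1244 and 921 counts, a log2 ratio of -0.33 (-0.46 to -0.21, adjusted p = 2.09e-06, exact binomial). Notch1 had 3486 and 2855 counts, a log2 ratio of -0.19 (-0.26 to -0.11, adjusted p = 5.57e-06, exact binomial). Rbpj, with the pseudogene as above, passed in the other direction at 0.22 (adjusted p = 0.00157, exact binomial).

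The other 6 members were within counting error. Their log2 ratios were -0.13 for Dll4, -0.08 for Dll1, -0.03 for Maml1, -0.01 for Notch2, -0.01 for Jag1 and 0.01 for Notch3, with the widest interval at Dll1 (-0.35 to 0.18). Scaling on the spike-in RNAs moved the median of all genes to 0.24 and with it the members: Notch4 (-0.22) and Jag2 (-0.09) kept their direction, Notch1 turned to 0.06, and of the members only Notch4 was then lower with an adjusted p under 0.05 while 5 were higher. This scaling adds the same amount to the log2 ratio of every gene.

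**Figure D5:**
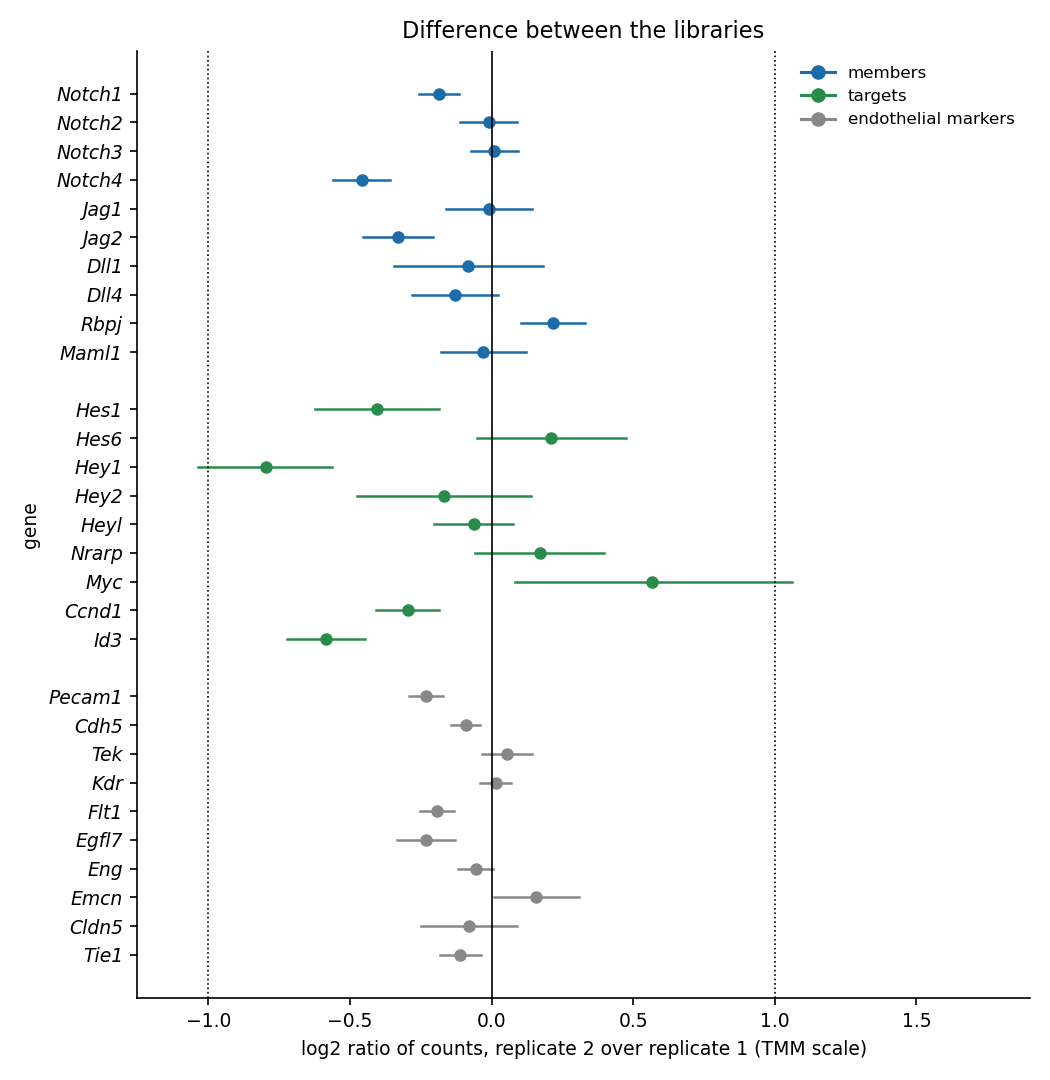
Log2 ratio of counts, replicate 2 over replicate 1 (horizontal axis), with 95% exact binomial intervals, for the members, the 9 tested targets and 10 endothelial markers, and dotted lines at a 2-fold difference. On this TMM scale Notch4 (-0.46), Hey1 (-0.80) and Id3 (-0.58) lie to the left of the endothelial markers, whose lowest value is -0.23, while on the spike-in scale all genes move right by about the same amount and Notch1 lies at 0.06.

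Among the 63 further pathway genes tested, 0 were called at 2-fold, and without the 2-fold minimum 11 were lower and 8 higher in replicate 2. Over all 13745 tested genes 1.53% were called, and without the minimum 11.7% were lower and 9.84% higher. With edgeR 0 passed the adjusted threshold, and Hey1, Id3, Lfng and Maml3 were the 4 of 63 with an unadjusted p under 0.05. Over all tested genes 583 of 13745 had such a p. Of 9 tested targets 4 were lower and 0 higher at any fold, against 11.7% and 9.84% of all tested genes. Hey1 had 426 and 228 expected counts and a log2 ratio of -0.80 (-1.04 to -0.56, adjusted p = 1.78e-10, exact binomial). Id3 was at -0.58 (adjusted p = 3.46e-16, exact binomial), Hes1 at -0.40 and Ccnd1 at -0.30 (both past the same test), and edgeR's exact test gave Hey1 an unadjusted p of 0.00237 and Id3 one of 0.0158. Hey2, Heyl, Hes6, Nrarp and Myc did not pass, with log2 ratios from -0.17 for Hey2 to 0.57 for Myc. Lfng was lower at -0.57 (adjusted p = 0.000804, exact binomial) and Maml3 higher at 0.52 (adjusted p = 1.78e-05, exact binomial). On the spike-in scale Hey1 (-0.55), Id3 (-0.34), Lfng (-0.32), Hes1 (-0.16), Ccnd1 (-0.05) and Maml3 (0.76) kept their direction, but Hes1 (adjusted p = 0.209, exact binomial) and Ccnd1 (adjusted p = 0.425) no longer passed.

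Markers of the cell types that carry these genes were read in the same libraries. All 10 endothelial markers were detected, from Cldn5, a tight junction protein, at 14.1 ± 0.933 TPM to Egfl7, a secreted endothelial protein, at 59.4 ± 9.73 TPM (SD, n = 2). Their summed level was 351 TPM in replicate 1 and 311 TPM in replicate 2, with a median log2 ratio of -0.08. Without the 2-fold minimum 5 of 10 were lower and 0 higher, where 11.7% and 9.84% of all tested genes were. Pecam1, an adhesion protein of endothelium, was among the lower ones at 53.9 and 43.3 TPM. By log2 ratio 7 of the 10 were below 0 and 3 above it, which were Tek (0.05), Kdr (0.01) and Emcn (0.16). Ratios were formed with Pecam1 and Cdh5 only, both on the lower side. The ratio to Pecam1 was 0.279 and 0.274 for Notch4, 0.240 and 0.245 for Notch1, and 0.124 and 0.136 for Dll4. The ratio to Cdh5, the cadherin of endothelial junctions, was lower in replicate 2, with 0.287 and 0.248 for Notch4 and 0.247 and 0.221 for Notch1. In TPM, whether these genes kept a level ratio to endothelial RNA thus differed with the marker. The Notch4 TPM includes 5.31 and 5.17 TPM of the short forms that few reads supported. On counts Notch4 (-0.46) was further down than both Pecam1 (-0.23) and Cdh5 (-0.09), while Notch1 (-0.19) lay between them. Hey1 over Pecam1 was 0.119 and 0.0764. In RNA of a whole heart, fewer cells of a type and less RNA per cell cannot be told apart, and the part of cell make-up in these differences was not tested.

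Arterial markers summed to 76.5 and 74.6 TPM, with 7 of 8 detected. The highest was Nrp1, a co-receptor for VEGF, at 40.4 ± 2.14 TPM, the lowest was Bmx, not detected at 0.91 and 1.23 TPM, and Hey1 is itself in that list. Endocardial markers summed to 38.0 and 33.2 TPM, from Plvap at 10.3 ± 1.99 TPM to Npr3, a natriuretic peptide receptor, at 13.5 ± 0.332 TPM. Mural markers summed to 347 and 323 TPM, from Cnn1 at 3.25 ± 0.856 TPM to Rgs5, a pericyte gene, at 107 ± 5.28 TPM. By log2 ratio 7 of the 10 mural markers were below 0 and 3 above it, with Pdgfrb (0.10) on the higher side. Without the 2-fold minimum 3 were lower and 1 higher, where 11.7% and 9.84% of all tested genes were. Notch3 was 0.661 ± 0.0242 times Pdgfrb, the mural growth factor receptor, with 0.678 and 0.644 in the libraries. No ratio to another mural marker was formed, so the direction of this one depends on the marker.

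Fibroblast markers, from Tcf21 at 4.48 ± 0.0283 TPM to Gsn at 343 ± 8.12 TPM, summed to 573 and 593 TPM. Without the 2-fold minimum 4 of 6 were higher and 1 was lower, where 9.84% and 11.7% of all tested genes were. Leukocyte markers summed to 67.5 and 69.1 TPM, from Cd3e at 0.155 ± 0.0212 TPM to Lyz2 at 52.1 ± 1.88 TPM. Epcam, an epithelial adhesion protein, was at 0.02 and 0 TPM. All 4 red cell markers, from Slc4a1 at 7.77 and 2.80 TPM to Hbb-bs at 12909 and 4196 TPM, were called lower in replicate 2. Over all tested genes 1.53% were called in either direction. The part of blood carried with the tissue in the values of the Notch genes was not tested.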

How the data were processed

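The authors deposited, for each library, gene and transcript tables with expected counts and TPM (first quantification) and a transcript table with estimated counts and TPM (second quantification), all on mm10 with the GENCODE M21 annotation, as their description files state. No program or version is named there. The effect of CAST alleles on alignment was not measured.

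The second quantification was summed per gene. The 97 spike-in rows and 26248 rows without a gene were left out. Rounded expected counts were compared by a two-sided exact binomial test against TMM-scaled library sizes (edgeR 4.0.16), over the 13745 genes whose counts summed to 50 or more, adjusted by Benjamini-Hochberg. The log2 ratios have 0.5 added to each count, and intervals are exact at 95% and cover counting error only. The test was checked on simulated counts. With 1 group of 2 samples, no test between conditions exists, and the p-values measure only these libraries. DESeq2 1.42.0 size factors, spike-in scaling and edgeR's exact test with a common dispersion (biological coefficient of variation 0.113) were alternatives. The dispersion was estimated from the same 2 libraries that the test then compared.

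The members and lists were chosen with earlier results of these data known. Named were all members, every target, the highest and lowest gene of each list, and genes called between the libraries. Names beyond that rule (single transcripts, overlapping genes, Rbpj-ps3, Maml2, Pecam1, Cdh5, Tek, Kdr, Emcn, Pdgfrb) serve a comparison with a member or were chosen after their values were seen. Some marker genes are not reported here.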

Additional observations from a re-analysis of the deposited data

How the results depend on the processing

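All 10 members were detected under each alternative at 1 TPM, and 7 at 5 TPM, where the other pathway genes fell from 61 to 36. Rescaling TPM over nuclear protein-coding genes without haemoglobins raised all 10 member levels, from 2.52 to 6.83 for Dll1 and from 13.5 to 36.4 for Notch4. Without the 2-fold minimum, 4 members and 19 other pathway genes differed between the libraries in place of 0. With that change 2959 of the 13745 tested genes were called in place of 210. The Notch4 share of receptor TPM was 32.5%, 33.4% with posterior mean TPM (where Notch1 held 31.3%) and 27.4% in the second quantification. It was 19.4% by expected counts, which favour long transcripts, and 24.7% with leading transcripts alone. It ran from 31.3% to 33.7% with 1 library at a time. The Jag2 share of ligand TPM was 42.4%, 42.9% with posterior mean TPM and 43.0% in the second quantification. It was 39.2% by expected counts and 34.1% with leading transcripts alone, and ran from 41.2% to 43.7% with 1 library at a time. Spike-in scaling turned the log2 ratio of Notch1 to 0.057, Notch2 to 0.23, Jag1 to 0.23, Dll1 to 0.16, Dll4 to 0.11 and Maml1 to 0.21. These changes of sign are the shift that moved the median of all genes to 0.24. Why the spike-in and TMM scales differ was not tested. DESeq2 size factors turned Notch3 to -0.0072. No paired analysis was possible because the samples form 1 group.

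With 2 animals a spread rests on 1 difference. Dll1, with 258 and 227 counts, had the least depth of the members. Of further comparisons of single values with an alternative, 126 stayed within the spread between the libraries or kept their call, 74 moved further and 7 changed sign.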
